A study of Arabidopsis thaliana with 8 samples.

Results

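Transcript levels in a hy5 mutant of Arabidopsis thaliana were compared with those of wild type (WT) after growth in blue light. The comparison rests on 4 of the 8 libraries of the series, 2 labelled hy5 and 2 labelled WT, which were chosen by genotype alone. All libraries came from whole seedlings of ecotype Col-0. Seeds on Murashige and Skoog medium with 1% sucrose were kept for 3 days at 4 °C, given 12 h of white light and then grown for 4.5 days in blue light. WT is labelled as wild type, and the labels name no allele for the hy5 line. The other 4 libraries came from agb1 (allele agb1-2), which lacks the G protein beta subunit AGB1, and from cry1 cry2, which lacks the cryptochromes CRY1 and CRY2, and were used only where hy5 was set against another mutant. Each genotype had 2 libraries labelled as biological replicates. Nothing in the labels says how many plants or how many sowings they came from, so p-values measure only the spread between these libraries.

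HY5 belongs to the basic leucine zipper (bZIP) transcription factors. In darkness it is marked for degradation by the COP1 and SPA ubiquitin ligase complex, and in light, after photoreceptors restrain that complex, it accumulates and binds promoter elements with an ACGT core such as the G-box CACGTG. Mutants without HY5 are known for long hypocotyls in light, low chlorophyll and flavonoid content and altered roots. HYH is its closest homologue.

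Library totals were 23098347 and 19763086 counted reads in WT and 17363965 and 20072882 in hy5, summed over transcript models. Whether a read could be counted at several models of a locus is not stated, so these totals, and the read counts and shares of reads given for genes, may count some reads more than once. Levels are given in CPM, which are read counts relative to the scaled size of the library. A value after ± is an SD over 2 libraries for a level and a standard error for a log2 fold change, which is always hy5 minus the other genotype. Calls were made by edgeR's quasi-likelihood test over all 20695 tested loci, with a Benjamini-Hochberg adjusted p below 0.05, and only called genes are said to have risen or fallen. For single genes other than HY5 and WOX5 whose CPM is given for each WT and hy5 library, the 2 hy5 libraries did not overlap the 2 of WT. This was a condition for naming many of them and held at 70.1% of all tested loci, so it adds no support of its own. The first principal component of log2 levels held 70.8% of the variance and the second 20.9%. Along the second, the hy5 libraries lay at -33.6 and -33.5 and the other 6 libraries between 5.0 and 15.5. Markers of seed stayed low, with a summed level of 17.1 and 18.6 CPM in WT and 18.5 and 21.9 CPM in hy5 over 16 genes.

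HY5 itself (AT5G11260, chromosome 5, bases 3593335 to 3595073, TAIR10.1) had 15.9 and 14.9 CPM in WT and 13.96 and 14.9 CPM in hy5, which is 355 and 292 reads in WT and 238 and 295 reads in hy5. The groups overlapped, and the difference did not pass the test (log2 fold change -0.09 ± 0.10, adjusted p = 0.488). The reads at HY5 therefore give no check of the hy5 label, since some mutant alleles leave the transcript in place. HYH (AT3G17609, chromosome 3, bases 6023844 to 6024710) had 12.2 and 11.5 CPM in WT and 10.1 and 9.17 CPM in hy5, with both hy5 libraries below both WT libraries. Its log2 fold change of -0.30 ± 0.13 missed the threshold (adjusted p = 0.0542) and passed it under 4 of the alternative settings, with an adjusted p from 0.0315 to 0.0484.

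Across the genome 8872 of 20695 tested loci were called (42.9%), 4683 of them higher in hy5 (22.6%) and 4189 lower (20.2%). Most of these differences were small. The median absolute log2 fold change of a called gene was 0.46, and 1306 loci (6.31%) passed 2-fold, 640 higher (3.09%) and 666 lower (3.22%). At 4-fold the counts were 83 higher and 97 lower, and at 16-fold 7 and 12. The 2 hy5 libraries lay beyond the 2 WT libraries at 70.1% of tested loci. The share of loci called rose with the level, from 17.7% below 1 CPM to 80.2% at 500 CPM or more, so a call at a high level can stand for a small change. Between 42.2% and 43.6% of loci were called on each of the 5 chromosomes. DESeq2 called fewer genes, 3457 higher and 2778 lower.

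**Figure D1:**
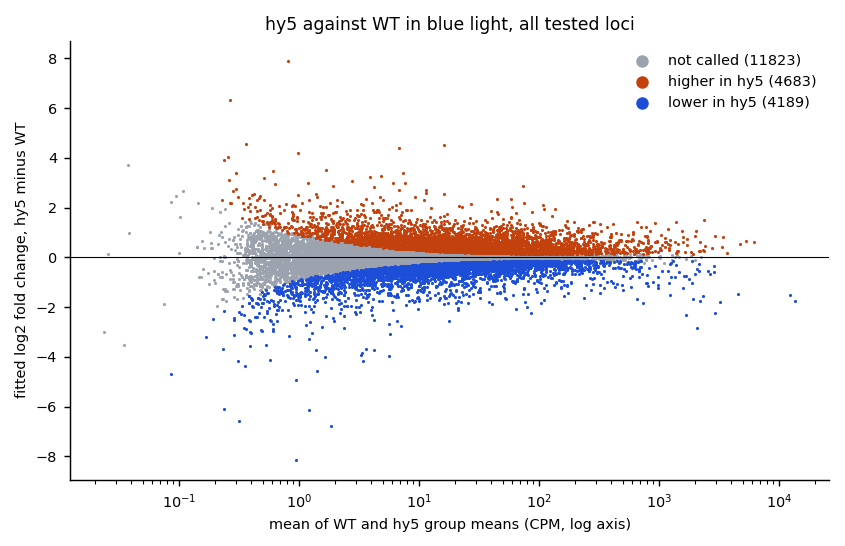
Fitted log2 fold change of hy5 against WT (vertical axis) by the mean level of both genotypes in CPM (horizontal log axis), 1 point per tested locus. Called loci lie on both sides of 0 in similar numbers, 4683 higher and 4189 lower, and the largest fitted values belong to loci with few reads.

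Of the genes that averaged 5 CPM or more and whose libraries did not overlap, the largest increase was that of MRD1 (AT1G53480, chromosome 1, bases 19963047 to 19964712), which is annotated as responding to the mto1 mutation of methionine metabolism. It had 1.25 and 1.43 CPM in WT and 31.4 and 30.6 CPM in hy5, so that it was close to silent in WT and moderately expressed in hy5 (log2 fold change 4.53 ± 0.15, adjusted p = 3.19e-20). A glycine-rich protein gene, AT3G02670, followed with 0.760 and 0.460 CPM in WT and 11.8 and 14.2 CPM in hy5 (4.39 ± 0.23). Several of the other large increases belong to cell wall proteins. The pectin lyase-like genes AT1G48100 (3.38 ± 0.19) and AT1G10640 (2.99 ± 0.18), the pectin methylesterase gene PME61 (2.57 ± 0.13) and the arabinogalactan protein gene AGP19 (2.43 ± 0.14) were among the 12 largest. SULTR3;1, which encodes a sulfate transporter, had 2.59 and 3.48 CPM in WT and 19.6 and 20.01 CPM in hy5 (2.72 ± 0.14). NEET, which encodes an iron-sulfur cluster protein, had 4.56 and 5.06 CPM in WT and 26.7 and 29.1 CPM in hy5 (2.54 ± 0.11), and BGLU18, a beta-glucosidase known for releasing abscisic acid from its glucose ester, had 15.3 and 14.3 CPM in WT and 77.4 and 73.8 CPM in hy5 (2.35 ± 0.07). The 12 were completed by the putative transmembrane protein gene AT3G28270 (2.996 ± 0.19), the F-box protein gene AT1G73120 (2.88 ± 0.07) and the oxidoreductase-family gene SQP1 (2.71 ± 0.19). MRD1, AT3G02670, AT1G48100 and AGP19 overlap an annotated locus on the opposite strand, and no source states a strand setting for the counting, so reads of that locus may be part of their values. The same holds for 165 of the 752 distinct tested loci on the gene lists described next. Among genes named there, it holds for LHCB2.3, LHCB3, LHCA4, LHCA5, PSAG, GLDP1, CHLM, CRD1, PORB, BCH2, VDE, SEP2, UVR2, CHS, PHOT2, SPA3, SPA4, BBX24, BBX25, RVE1, LNK2, FKF1, EXPA7, XTH15, CESA1, FLA11, COR15B, FLS2, bHLH38, bHLH101, FRO3, CSD1, BDG, FAR1-ACR, CASP5, PER73, CDKB2;1, CYCD3;2, APL1, BAM3 and PYK10. PSAD2, FD1, PHYE, BBX32, FER4 and TSO2 overlap a locus on their own strand.

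The largest decrease under the same rule was again that of a pectin lyase-like gene, AT1G65570 (chromosome 1, bases 24373874 to 24375895). It had 10.6 and 10.5 CPM in WT and 0.821 and 0.557 CPM in hy5, and the libraries of the genotypes stood far apart (-3.95 ± 0.21, adjusted p = 2.36e-15). F3H, which encodes flavanone 3-hydroxylase of flavonol synthesis, had 10.1 and 10.5 CPM in WT and 0.880 and 1.47 CPM in hy5 (-3.10 ± 0.19). The antenna genes LHCB1.2, LHCB3 and LHCB1.1 and the iron-deficiency regulator bHLH101 also belong to the 12 and are described with their groups. QQS, an orphan gene known for its effect on starch content, had 8.76 and 10.8 CPM in WT and 1.82 and 1.27 CPM in hy5 (-2.67 ± 0.20). Against agb1, with 1.52 and 1.17 CPM, its difference was not called (0.16 ± 0.31, adjusted p = 0.693), and cry1 cry2 had 0.443 and 0.510 CPM. A low QQS level was therefore not particular to hy5. BBX16, a B-box protein, had 10.4 and 12.2 CPM in WT and 1.64 and 2.13 CPM in hy5 (-2.57 ± 0.18). AT2G03510, which encodes a membrane-associated protein of the SPFH/Band 7 family, had 30.6 and 29.96 CPM in WT and 5.10 and 5.12 CPM in hy5 (-2.57 ± 0.10). The remaining members of the 12 were a phosphoglucomutase-like gene, AT1G70820 (-2.23 ± 0.06), the oxidoreductase-family gene AT1G57770 (-2.13 ± 0.10) and the subtilase gene AT2G39850 (-2.11 ± 0.17). No locus with at least 5 CPM in both libraries of one genotype had 3 or fewer reads in both libraries of the other.

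**Figure D2:**
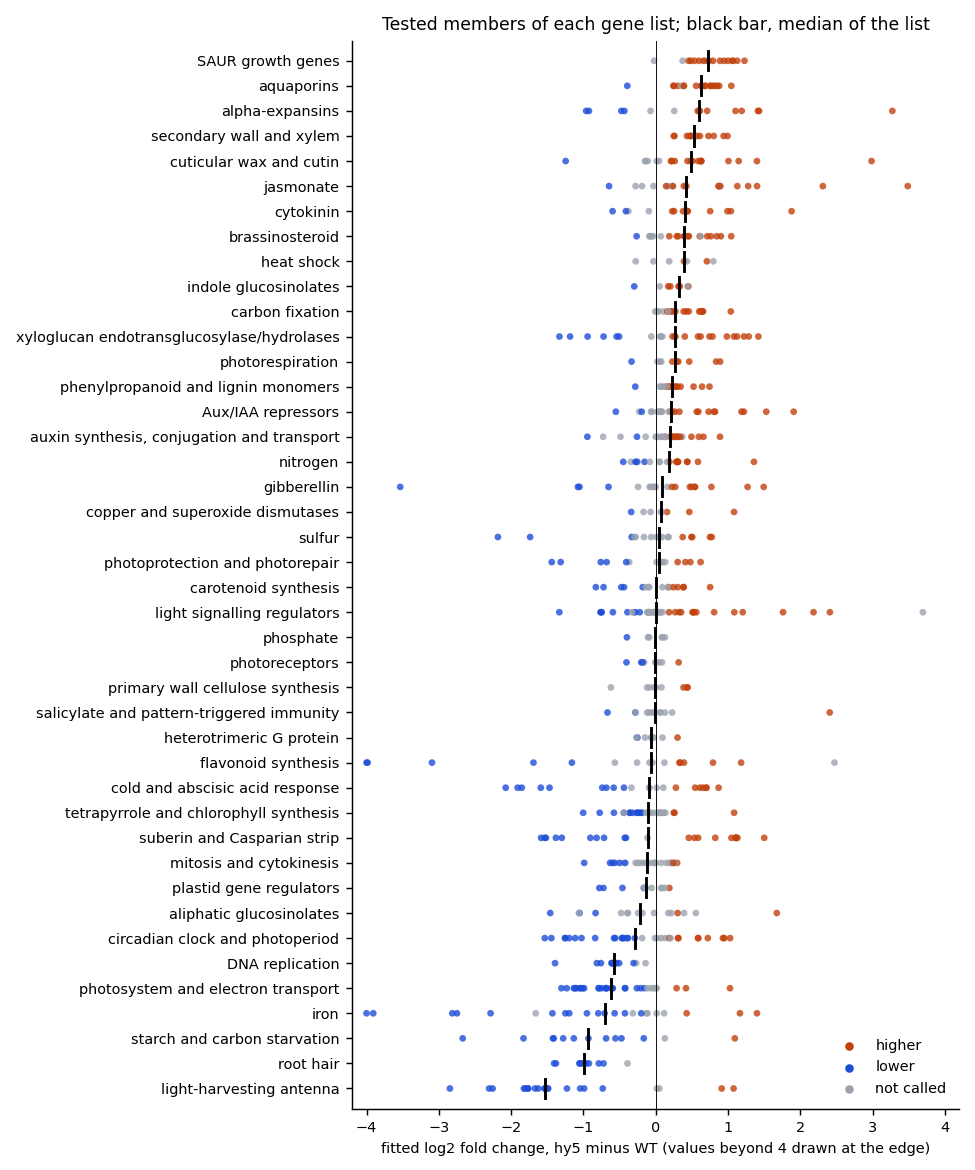
Fitted log2 fold change of hy5 against WT (horizontal axis) for every tested member of 42 gene lists (rows), coloured by call, with a black bar at the median of each list. Rows are ordered by median, from the antenna list at -1.53 to the SAUR list at 0.73, and single values beyond 4 are drawn at the edge.

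The process with the lowest median was light harvesting. Chlorophyll-binding antenna proteins surround the photosystems, LHCB proteins mainly photosystem II and LHCA proteins photosystem I. Of the 21 tested antenna genes 17 fell and 2 rose, with a median log2 fold change of -1.53 beside -0.0011 over all loci, where 42.9% were called. LHCB1.2 (AT1G29910, chromosome 1, bases 10472280 to 10473502) had 3740.3 and 3509 CPM in WT and 493 and 514 CPM in hy5 (-2.85 ± 0.06, adjusted p = 3.81e-25). LHCB3, a part of the trimeric antenna of photosystem II, had 2850.1 and 2756 CPM in WT and 566 and 568 CPM in hy5 (-2.31 ± 0.05). LHCA4, one of the outer antenna proteins of photosystem I, had 5263 and 4900.5 CPM in WT and 1480.2 and 1431 CPM in hy5 (-1.80 ± 0.05). In each of these 3 genes the hy5 libraries were close to each other and far below WT, and their gap was many times the spread within a genotype. The 5 LHCB1 genes, all of which fell, encode nearly identical proteins, and how reads that match several copies were handled is not given. As a group the 21 genes took 8.31% and 7.91% of all reads in WT and 2.60% and 2.62% in hy5. In whole-seedling RNA, fewer cells of a type and less RNA per cell cannot be told apart.

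The remaining antenna genes did not fall. LHCA6 had 17.2 and 17.8 CPM in WT and 36.5 and 37.1 CPM in hy5 and rose (1.08 ± 0.09), as did LHCB4.3, from 6.81 ± 0.207 to 12.8 ± 0.254 CPM (0.91 ± 0.12). LHCA5 (0.01 ± 0.06, adjusted p = 0.874) and LHCB7 (0.05 ± 0.11) were not called. LHCA5 and LHCA6 are known for linking photosystem I to the NADH dehydrogenase-like complex of cyclic electron flow. LHCB7 was picked after its values were seen, as were PSBQ1, UVR2, UVR8 and GLK2 among the photosynthesis genes described next.

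Nuclear genes for photosystem subunits and electron carriers moved the same way by a smaller amount: 23 of 31 fell and 3 rose (median -0.62). PSBQ2, an extrinsic subunit of the oxygen-evolving complex, had 729.8 and 705 CPM in WT and 287 and 293 CPM in hy5 (-1.31 ± 0.05), while its paralog PSBQ1 stood at -0.16 ± 0.05. PSAD2 (-1.23 ± 0.06) and PSAG (-1.13 ± 0.06) encode subunits of photosystem I, and all 12 photosystem I genes of the list fell. The plastocyanin gene PETE2 was not called (-0.12 ± 0.05, adjusted p = 0.0589, with 0.0374 to 0.0463 under 3 of the alternative settings). FD2, the main leaf ferredoxin, went the other way with 399 and 408 CPM in WT and 806 and 838 CPM in hy5 (1.03 ± 0.05), and FD1 (0.42 ± 0.06) and the photoprotective subunit gene PSBS (0.29 ± 0.05) rose as well.

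Genes of carbon fixation moved opposite to the antenna. Of 19 tested genes 14 rose and the other 5 were not called, with a median of 0.27. CP12-2, a small regulator of the Calvin-Benson cycle, had 47.2 and 43.4 CPM in WT and 96.7 and 89.7 CPM in hy5 (1.04 ± 0.07). RBCS1B, one of the Rubisco small subunit genes, had 776 and 716 CPM in WT and 1161 and 1186 CPM in hy5 (0.65 ± 0.05), and FBA1, a plastid aldolase, rose by a like amount (0.65 ± 0.05). The copies of the Rubisco small subunit are near-identical, so reads could be split between them. The list took 1.70% and 1.69% of reads in WT and 2.18% and 2.13% in hy5. Photorespiration, which recycles the product of the oxygenase reaction of Rubisco, gave 6 higher and 1 lower of 10, with the glycine decarboxylase gene GLDP1 at 0.89 ± 0.05.

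**Figure D3:**
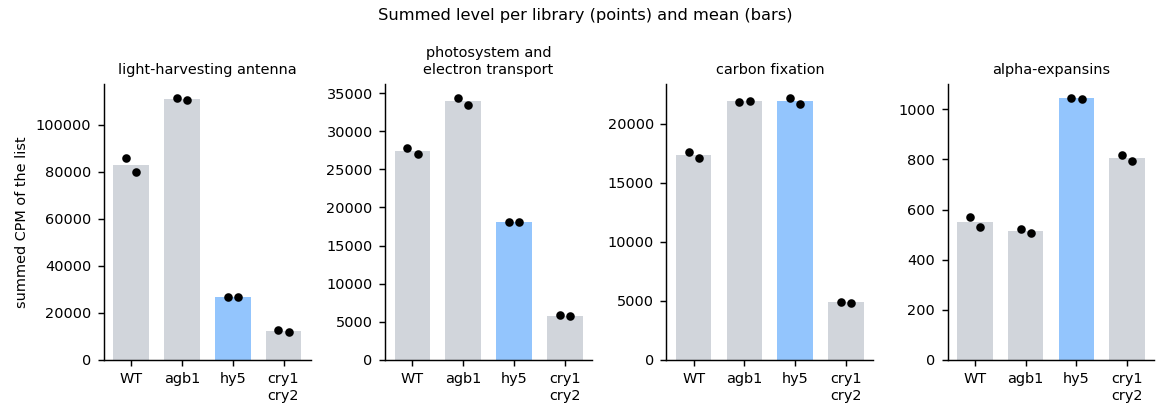
Summed CPM (vertical axis, from 0) of 4 gene lists in each library (points) and the mean of each genotype (bars). The hy5 libraries lie below WT for the antenna and photosystem lists and above WT for carbon fixation and alpha-expansins.

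Pigment synthesis changed less. In the tetrapyrrole list, which covers chlorophyll synthesis, 12 of 29 genes fell and 3 rose (median -0.11). The share called was 51.7%, beside 42.9% over all loci, where 22.6% rose and 20.2% fell. PORB, a protochlorophyllide oxidoreductase, had 184 and 185 CPM in WT and 91.8 and 92.2 CPM in hy5 (-1.004 ± 0.05), and CRD1, a subunit of the cyclase, went from 870.0 ± 10.1 to 508 ± 5.39 CPM (-0.78 ± 0.05). PORA, its relative known from dark-grown seedlings, rose from a low level of 1.26 ± 0.389 to 2.65 ± 0.313 CPM (1.08 ± 0.24) and was picked after its values were seen. CHLM, a methyltransferase of the same branch, was not called (-0.03 ± 0.06, adjusted p = 0.75). In carotenoid synthesis 6 of 16 genes rose and 5 fell. The beta-carotene hydroxylase genes diverged, BCH1 at 0.75 ± 0.07 and BCH2 at -0.72 ± 0.09, and both enzymes of the xanthophyll cycle fell, VDE at -0.83 ± 0.06 and ZEP at -0.48 ± 0.05.

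Of the genes for photoprotection and repair of light damage, 4 of 14 rose and 5 fell. The genes of the photolyase and cryptochrome-DASH class in the list, which act on DNA damage from UV light or are related to such enzymes, all fell. UVR3, a photolyase for 6-4 photoproducts, had 58.7 and 57.9 CPM in WT and 38.9 and 34.05 CPM in hy5 (-0.68 ± 0.07), CRY3 went from 18.6 ± 0.210 to 10.9 ± 0.137 CPM (-0.76 ± 0.11), and UVR2, which repairs pyrimidine dimers, went from 5.36 ± 0.441 to 2.14 ± 0.202 CPM (-1.31 ± 0.20). SEP2 (0.62 ± 0.07) and RUP1, a repressor of the UV-B receptor UVR8, rose (0.48 ± 0.08), and UVR8 was not called (0.01 ± 0.05). Among regulators of plastid genes 4 of 11 fell and 1 rose, so that 45.5% were called, near the 42.9% over all loci. The 1 that rose, SIG1 (0.19 ± 0.07), lost its call with DESeq2 (adjusted p = 0.0899). GLK1, which activates antenna genes, fell from 52.5 ± 6.12 to 31.9 ± 2.61 CPM (-0.72 ± 0.08), and GLK2 stood at -0.17 ± 0.05. The cytokinin-responsive GATA factor CGA1 fell (-0.78 ± 0.11), as did the plastid sigma factor SIG5 (-0.46 ± 0.07).

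The list of starch and carbon starvation genes had one of the lowest medians. Transient starch is made in the chloroplast by day and broken down at night, and some genes of the list, such as SEN1 and DIN10, are known from sugar starvation. Over the whole list 11 of 13 tested genes fell and 1 rose (median -0.93). AMY3, a plastid alpha-amylase, had 159.8 and 169 CPM in WT and 46.2 and 46.3 CPM in hy5 (-1.83 ± 0.06, adjusted p = 9.66e-20). SEX1, the glucan-water dikinase that starts starch breakdown, had 449 and 491 CPM in WT and 179.9 and 171 CPM in hy5 (-1.42 ± 0.06). The phosphoglucomutase PGM1 (-0.93 ± 0.06) and the ADP-glucose pyrophosphorylase subunit APL1 (-0.69 ± 0.05) act in synthesis, and DPE1 (-1.41 ± 0.08), DPE2 (-1.28 ± 0.06) and ISA3 (-1.13 ± 0.08) in breakdown, so genes of both arms were lower. SEN1 (-0.56 ± 0.05) and DIN10 (-0.17 ± 0.05) fell too. SEN1, DIN10, PGM1, APL1, DPE1, DPE2 and ISA3 were picked after their values were seen. The exception was BAM3, a beta-amylase, with 93.6 and 95.7 CPM in WT and 205 and 198 CPM in hy5 (1.09 ± 0.05).

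Of 42 tested light signalling regulators 14 rose, 8 fell and 20 were not called. The share called was 52.4%, beside 42.9% over all loci, where 22.6% rose and 20.2% fell. Members of the same family moved in opposite directions. Among B-box proteins, BBX22, which is known to act with HY5, had 73.4 and 74.7 CPM in WT and 29.03 and 29.7 CPM in hy5 and fell (-1.33 ± 0.07). BBX25, a B-box protein that interferes with HY5, had 37.01 and 35.4 CPM in WT and 85.6 and 81.5 CPM in hy5 and rose (1.20 ± 0.07). BBX31 had 3.04 and 1.89 CPM in WT and 12.1 and 10.7 CPM in hy5 (2.18 ± 0.19), and its relatives BBX30 (2.41 ± 0.21) and BBX32 (1.76 ± 0.26), picked after their values were seen and under 10 CPM in every library, rose too. BBX24, the close relative of BBX25, was not called (-0.01 ± 0.05, adjusted p = 0.914).

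Among the phytochrome-interacting factors, most of which promote growth in the dark, PIF4 had 116 and 117 CPM in WT and 67.98 and 70.02 CPM in hy5 (-0.75 ± 0.06), while PIF8 had 29.5 and 27.9 CPM in WT and 59.5 and 62.5 CPM in hy5 (1.09 ± 0.07) and PIF3 was not called (0.06 ± 0.07). HFR1, an atypical bHLH protein that restrains PIF4 and PIF5, fell (-0.77 ± 0.06), as did PAR1 of the same kind (-0.75 ± 0.07). The COP1 partner genes SPA3 (0.81 ± 0.07) and SPA4 (0.56 ± 0.09) rose and COP1 itself was not called (-0.07 ± 0.07, adjusted p = 0.426). PIF3, PAR1, SPA3, SPA4 and COP1, together with CRY1 and CRY2, were picked after their values were seen. Of 9 photoreceptor genes 3 fell and 1 rose, so that 44.4% were called, near the 42.9% over all loci. PHYE (-0.40 ± 0.08) and PHOT2 (0.32 ± 0.06) moved most, and CRY1 and CRY2 did not pass the test (-0.00 ± 0.05 and 0.05 ± 0.05). Of the 9 G protein genes AGB1 rose (0.30 ± 0.07), GPA1, the alpha subunit, fell (-0.25 ± 0.06), and 7 were not called. That is a share called of 22.2%, below the 42.9% over all loci.

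The circadian clock runs on interlocked repressors that peak at successive times of day. Of 31 tested clock and photoperiod genes 16 fell and 9 rose (median -0.29). The pseudo-response regulators, which follow one another through the day, all fell. PRR7 had 247 and 239 CPM in WT and 84.8 and 82.9 CPM in hy5 (-1.53 ± 0.06, adjusted p = 3.83e-19), and PRR9 (-1.20 ± 0.11), PRR5 (-1.26 ± 0.06), PRR3 (-0.38 ± 0.10) and TOC1 (-0.47 ± 0.05) were lower by less. Evening genes fell too. FKF1, a blue-light photoreceptor that sets flowering time, had 70.6 and 68.1 CPM in WT and 26.6 and 24.5 CPM in hy5 (-1.44 ± 0.07), GI went from 122 ± 0.392 to 59.8 ± 1.15 CPM (-1.03 ± 0.06) and ELF4 from 45.7 ± 0.186 to 19.2 ± 0.324 CPM (-1.25 ± 0.08). LNK2, a morning coactivator, stood at -0.84 ± 0.06.

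Several clock genes that peak near dawn were not called or rose. CCA1 (0.13 ± 0.07, adjusted p = 0.117) and RVE4 (0.02 ± 0.05) were not called, and LHY was higher by a small amount (0.19 ± 0.07). RVE2 (AT5G37260, chromosome 5, bases 14751344 to 14753088) had 83.1 and 84.000 CPM in WT and 178 and 163 CPM in hy5 (1.03 ± 0.06). RVE1, a dawn factor known to promote auxin synthesis, had 43.8 and 49.4 CPM in WT and 93.3 and 86.5 CPM in hy5 (0.95 ± 0.07), and CDF2 had 31.6 and 34.2 CPM in WT and 59.7 and 65.3 CPM in hy5 (0.93 ± 0.07). RVE7 of the same family fell (-1.11 ± 0.06). The hour of harvest is not given, so whether the levels differ in amount or in timing cannot be told apart. PRR3, TOC1, GI, ELF4, LNK2, CCA1, LHY and RVE7 were picked after their values were seen.

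**Figure D4:**
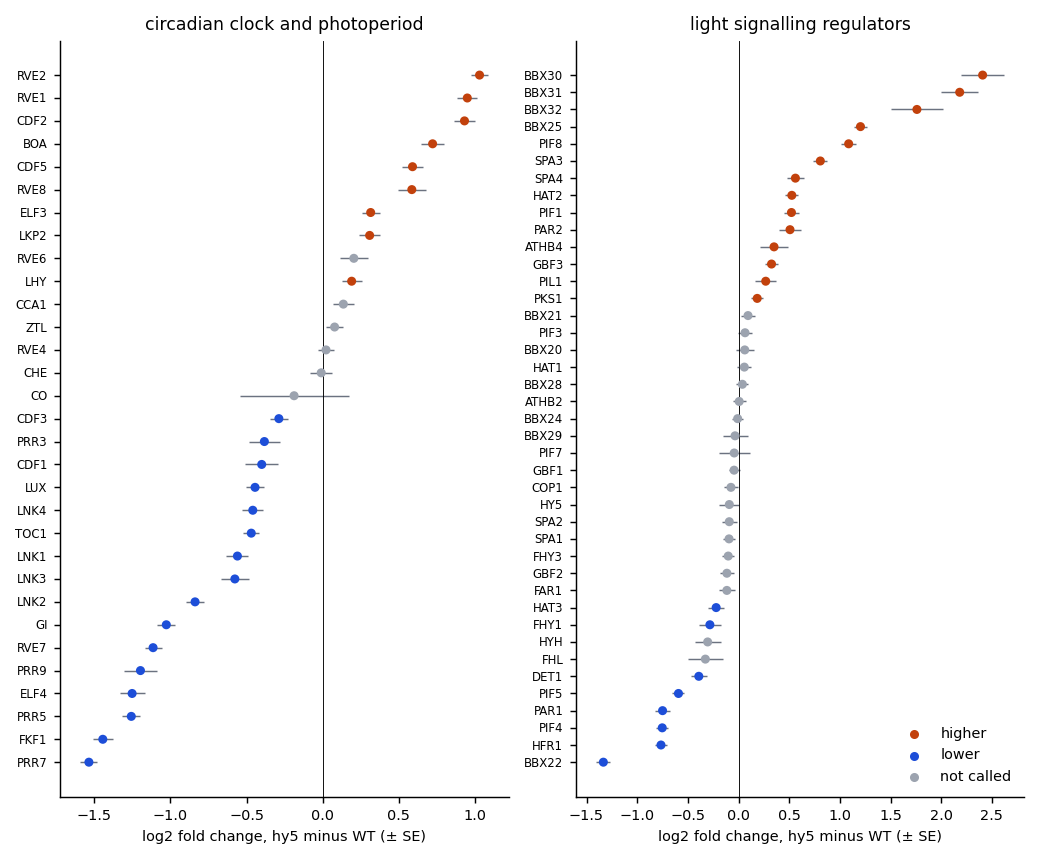
Fitted log2 fold change of hy5 against WT (horizontal axis, bars are standard errors) for tested clock genes (left) and light signalling regulators (right), ordered by value and coloured by call. BBX23, which had no read in WT, is not drawn. The lower end of the clock panel holds PRR7, FKF1, PRR5, ELF4 and PRR9, and the upper end of the other panel BBX30, BBX31 and BBX32.

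The promoters of antenna, clock, flavonoid and light signalling genes were searched for the G-box CACGTG, which reads the same on both strands, in the 250 bases before the annotated start of the gene in TAIR10.1. Of the called genes with at least 5 CPM in these lists 16 held it. The 6 with the largest change whose window touched no annotated exon are shown, since they are genes that both moved in hy5 and carry the element HY5 is known to bind. F3H and LHCB6 also ranked among the first and were left out for an exon in the window. Sequences run 5′ to 3′ on the strand of the gene and end at the base before its start, with each CACGTG in capitals. The windows are chr3:17495034-17495283 (minus strand), chr3:10255656-10255905 (plus), chr5:642031-642280 (minus), chr2:19232357-19232606 (plus), chr5:14753089-14753338 (minus) and chr5:5692993-5693242 (minus), in this order.
LHCA4: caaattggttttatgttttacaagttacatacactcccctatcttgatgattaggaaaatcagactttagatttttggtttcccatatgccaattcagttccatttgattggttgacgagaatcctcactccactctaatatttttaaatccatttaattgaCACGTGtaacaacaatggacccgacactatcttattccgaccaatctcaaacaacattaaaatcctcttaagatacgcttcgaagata
LHCB2.3: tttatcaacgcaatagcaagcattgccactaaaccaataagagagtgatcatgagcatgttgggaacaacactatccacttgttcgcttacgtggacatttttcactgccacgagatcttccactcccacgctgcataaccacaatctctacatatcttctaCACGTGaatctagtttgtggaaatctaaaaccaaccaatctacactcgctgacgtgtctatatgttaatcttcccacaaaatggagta
PRR7: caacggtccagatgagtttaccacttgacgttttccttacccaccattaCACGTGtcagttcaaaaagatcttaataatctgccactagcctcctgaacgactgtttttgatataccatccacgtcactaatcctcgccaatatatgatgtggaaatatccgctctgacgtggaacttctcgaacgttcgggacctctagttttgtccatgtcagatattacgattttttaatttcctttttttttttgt
PRR9: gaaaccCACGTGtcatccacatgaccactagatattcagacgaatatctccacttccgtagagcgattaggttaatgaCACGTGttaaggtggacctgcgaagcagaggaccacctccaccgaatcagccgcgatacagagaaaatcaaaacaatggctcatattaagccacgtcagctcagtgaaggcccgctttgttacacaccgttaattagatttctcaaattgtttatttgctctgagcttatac
RVE2: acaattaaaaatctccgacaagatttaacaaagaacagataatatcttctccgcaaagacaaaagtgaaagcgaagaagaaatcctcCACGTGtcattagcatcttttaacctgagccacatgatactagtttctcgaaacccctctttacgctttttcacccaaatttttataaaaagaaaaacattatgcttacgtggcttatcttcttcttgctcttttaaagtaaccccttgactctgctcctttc
RVE1: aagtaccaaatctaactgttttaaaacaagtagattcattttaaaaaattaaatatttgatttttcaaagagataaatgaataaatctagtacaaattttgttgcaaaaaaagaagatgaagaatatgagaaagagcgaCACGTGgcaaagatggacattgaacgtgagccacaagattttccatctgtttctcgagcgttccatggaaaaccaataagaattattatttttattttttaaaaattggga
In LHCA4 and LHCB2.3 the element ended 82 bases before the start, in PRR7 195, in RVE2 157 and in RVE1 105, and PRR9 held 2, at 238 and 166 bases. LHCA4, LHCB2.3, PRR7 and PRR9 fell in hy5 and RVE2 and RVE1 rose, so that a G-box stood in windows of genes that moved either way.

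Over all tested loci with a window 7.39% held CACGTG, against 8.15% of those that rose, 7.24% of those that fell and 7.14% of those not called. Read the other way, 25.0% of loci with the element rose and 19.8% fell, against 22.4% and 20.2% of those without it. The core ACGT, which is part of CACGTG, was in 44.6% of all tested windows. It was in 46.9% of those that rose, 45% of those that fell and 43.5% of those not called. At a change of at least 2-fold, ACGT was in 49.1% of higher and 52.3% of lower genes. CACGTG was in 8.83% and 8.56% of these. AATATCT, the core of the evening element bound by clock proteins, was searched on both strands and cannot overlap the G-box. It stood in 10% of tested windows, in 9.85% of those that rose, 12.1% of those that fell and 9.4% of those not called. At a change of at least 2-fold it stood in 9.62% of higher and 15.2% of lower genes. In the clock list 31.2% of windows held CACGTG and 40.6% AATATCT. The shares were 29.6% and 14.8% in the flavonoid list and 23.8% and 9.52% in the antenna list. For light signalling they were 16.7% and 9.52%. A match is a description of these letters and not of binding.

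In flavonoid synthesis 16 of 27 genes had enough reads to be tested, 5 rose and 5 fell. Beside F3H, chalcone synthase CHS went from 6.32 ± 0.547 to 1.96 ± 0.0489 CPM (-1.69 ± 0.18), the flavonol synthase FLS1 from 2.72 ± 0.518 to 0.105 ± 0.0660 CPM (-4.57 ± 0.47) and the flavonol regulator MYB12 from 3.10 ± 0.549 to 0.193 ± 0.0584 CPM (-3.99 ± 0.40). CHS, FLS1, MYB12, DFR and LDOX were picked after their values were seen, and FLS1 and MYB12 were under 5 CPM in every WT and hy5 library. MYBL2, a repressor of flavonoid genes, fell as well, with 241 and 230.5 CPM in WT and 104 and 107 CPM in hy5 (-1.16 ± 0.06). The flavonol glycosyltransferase gene UGT89C1 rose (0.39 ± 0.08), and UGT78D1, at 0.34 ± 0.13, lost its call with DESeq2 (adjusted p = 0.176) and without any 1 of the 4 libraries (adjusted p = 0.0666 to 0.159). Chalcone isomerase CHI also rose, with 6.17 and 4.86 CPM in WT and 11.6 and 13.5 CPM in hy5 (1.18 ± 0.14), and the regulator TTG1 was not called (-0.05 ± 0.07). The anthocyanin genes DFR and LDOX were under 0.5 CPM in all 4 libraries and were not tested. Phenylpropanoid and lignin monomer genes, the pathway upstream, gave 11 higher and 1 lower of 16, with CAD5 at 0.74 ± 0.06 and PAL4 at 0.64 ± 0.06.

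The SAUR, aquaporin and alpha-expansin lists had the highest medians, and other growth lists lay nearer 0. SAUR proteins, small auxin-induced activators of cell expansion, gave 15 higher and 3 not called of 18 (median 0.73). SAUR66 had 10.1 and 9.46 CPM in WT and 21.2 and 21.5 CPM in hy5 (1.13 ± 0.10, adjusted p = 1.97e-10), and SAUR62 had 5.27 and 5.62 CPM in WT and 11.3 and 11.6 CPM in hy5 (1.07 ± 0.13). The SAUR19 to SAUR24 genes and SAUR61 to SAUR68 genes are clusters of similar copies, and reads could be split within each. Of Aux/IAA repressors, which auxin itself induces, 13 of 24 rose and 2 fell. IAA28, a lower one (-0.19 ± 0.08, adjusted p = 0.0487), lost its call under 11 alternatives, with an adjusted p from 0.0511 to 0.213. IAA6 went from 5.01 ± 0.00310 to 14.3 ± 4.17 CPM (1.53 ± 0.15) and IAA19 from 25.2 ± 0.336 to 58.7 ± 0.734 CPM (1.22 ± 0.07), whereas IAA29 fell (-0.55 ± 0.06) and IAA9 was not called (-0.07 ± 0.05).

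For auxin synthesis, conjugation and transport, 12 of 25 genes rose and 2 fell. The share called was 56%, beside 42.9% over all loci, and with DESeq2 only 7 rose and 2 fell. WAG2, a kinase of auxin efflux carriers, had 16.6 and 17.6 CPM in WT and 28.2 and 34.96 CPM in hy5 (0.89 ± 0.10), the carrier gene PIN3 stood at 0.66 ± 0.06, and PIN2, a carrier of the root, fell from 30.4 ± 1.13 to 15.8 ± 0.175 CPM (-0.95 ± 0.08). Brassinosteroid genes gave 13 higher and 1 lower of 20. PRE1, a small bHLH protein that promotes elongation, had 5.59 and 4.81 CPM in WT and 10.8 and 10.7 CPM in hy5 (1.04 ± 0.13), and IBH1, which opposes it, also rose (0.90 ± 0.07). The gibberellin list gave 9 higher and 4 lower of 20, with the DELLA repressor RGL1 at 1.27 ± 0.09 and GASA14 at -1.08 ± 0.05. Cytokinin genes gave 10 higher and 2 lower of 14, and the response regulator ARR4 had 63.9 and 63.9 CPM in WT and 131 and 131 CPM in hy5 (1.04 ± 0.06).

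Enzymes and proteins that loosen walls mostly rose. Of alpha-expansins, 9 of 15 rose and 4 fell (median 0.60). EXPA1 (AT1G69530, chromosome 1, bases 26141726 to 26143538) had 114 and 101 CPM in WT and 301 and 279 CPM in hy5 (1.43 ± 0.06), and EXPA8 had 136 and 124 CPM in WT and 297 and 297 CPM in hy5 (1.19 ± 0.06). EXPA7 (-0.92 ± 0.12) and EXPA18 (-0.96 ± 0.12), both known from root hairs, fell. Xyloglucan endotransglucosylase/hydrolases, which cut and rejoin the wall polymer xyloglucan, gave 14 higher and 6 lower of 24. Of these, XTH31 had 22.9 and 19.99 CPM in WT and 48.7 and 51.4 CPM in hy5 (1.22 ± 0.08) and XTH15 had 827 and 790.0 CPM in WT and 348 and 363 CPM in hy5 (-1.18 ± 0.05).

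Other wall genes rose too. All 12 genes of the secondary wall and xylem list rose (median 0.53), with the fasciclin-like gene FLA12 at 0.99 ± 0.15, FLA11 at 0.94 ± 0.08 and the chitinase-like gene CTL2 at 0.80 ± 0.08. The cellulose synthases of the primary wall differed from them. Of 10 genes 3 rose and 7 were not called, CESA1 among them (-0.02 ± 0.06, adjusted p = 0.803). The share called was 30%, below the 42.9% over all loci. CESA1 was picked after its values were seen, as was GPAT4 of the cutin genes.

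Water channels rose almost as a group. Of 19 tested aquaporin genes 17 rose and 1 fell (median 0.63). PIP2;1, a channel of the plasma membrane, had 1366 and 1286 CPM in WT and 2693 and 2779.7 CPM in hy5 (1.05 ± 0.05, adjusted p = 5.55e-16), PIP1;2 stood at 0.88 ± 0.05 and TIP4;1, a channel of the vacuole membrane, at -0.39 ± 0.11, a call that was lost without WT replicate 1 or without hy5 replicate 1 (adjusted p = 0.0817 and 0.0772). In the surface layer, genes of cuticular wax and cutin gave 15 higher and 1 lower of 21 (median 0.48). CER1, needed for alkane synthesis, had 10.5 and 9.05 CPM in WT and 26.9 and 25.1 CPM in hy5 (1.40 ± 0.09), BDG had 14.9 and 12.99 CPM in WT and 30.1 and 31.9 CPM in hy5 (1.15 ± 0.09) and the fatty acid elongase KCS1 stood at 1.01 ± 0.06. The acyltransferase gene GPAT4 was not called (0.01 ± 0.07).

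Genes of root cell layers moved in different directions. Root hairs are outgrowths of epidermal cells, and 10 of 11 tested root hair genes fell and 1 was not called (median -0.996). RHD2, the NADPH oxidase of hair growth (AT5G51060, chromosome 5, bases 20757199 to 20762461), had 14.8 and 16.8 CPM in WT and 5.98 and 5.88 CPM in hy5 (-1.41 ± 0.12, adjusted p = 5.77e-11). The peroxidase gene PER73 had 33.97 and 32.3 CPM in WT and 12.3 and 13.2 CPM in hy5 (-1.38 ± 0.09), and the wall protein gene PRP1 had 39.7 and 36.8 CPM in WT and 16.6 and 20.1 CPM in hy5 (-1.05 ± 0.09). In these 3 genes the gap between genotypes was several times the gap between libraries of a genotype. RHD6, an upstream regulator, was not called (-0.39 ± 0.20, adjusted p = 0.127).

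In the endodermis, a deeper layer that seals the root, the list of suberin and Casparian strip genes held 10 higher and 10 lower members of 21. The higher ones included Casparian strip membrane proteins, with CASP4 at 12.1 and 8.49 CPM in WT and 23.3 and 21.6 CPM in hy5 (1.11 ± 0.11) and CASP5 at 1.13 ± 0.07. The regulator MYB36 rose too (0.59 ± 0.10). Most of the lower ones make or export suberin. FAR5, a fatty acyl reductase, had 14.9 and 14.8 CPM in WT and 3.93 and 5.83 CPM in hy5 (-1.59 ± 0.14), CYP86B1, a fatty acid hydroxylase, had 17.4 and 17.6 CPM in WT and 6.51 and 5.72 CPM in hy5 (-1.52 ± 0.11), and the suberin exporter gene ABCG6 stood at -1.38 ± 0.09. The suberin genes FAR1-ACR (0.46 ± 0.06) and KCS20 (0.53 ± 0.05) rose. MYB36, FAR1-ACR and KCS20 were picked after their values were seen.

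Markers of root tissue were read beside these lists. Of 14 tested markers 5 rose and 7 fell, with a median of -0.93. Their summed level went up, from 5659 and 5614 CPM in WT to 9145 and 9391 CPM in hy5, and most of the sum came from PYK10, a beta-glucosidase of ER bodies, with 4143 and 4169 CPM in WT and 6517 and 6650.1 CPM in hy5 (0.66 ± 0.04), and PBP1, its binding protein, with 1035 and 991 CPM in WT and 2056 and 2127 CPM in hy5 (1.05 ± 0.05). Among the markers of single layers or zones, CASP1 and MYB36 of the endodermis rose, and PIN2, RHD2, COBL9, EXPA7 and the stem cell factor PLT1 (-1.37 ± 0.37, adjusted p = 0.00382) fell. WOX5, a marker of the stem cell niche, had 5 reads in each library. RHD2, COBL9, EXPA7, CASP1, MYB36, PIN2 and IRT1 stand both among the markers and on other lists. The part of root share in the results on root layers, iron and water channels was not tested.

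**Figure D5:**
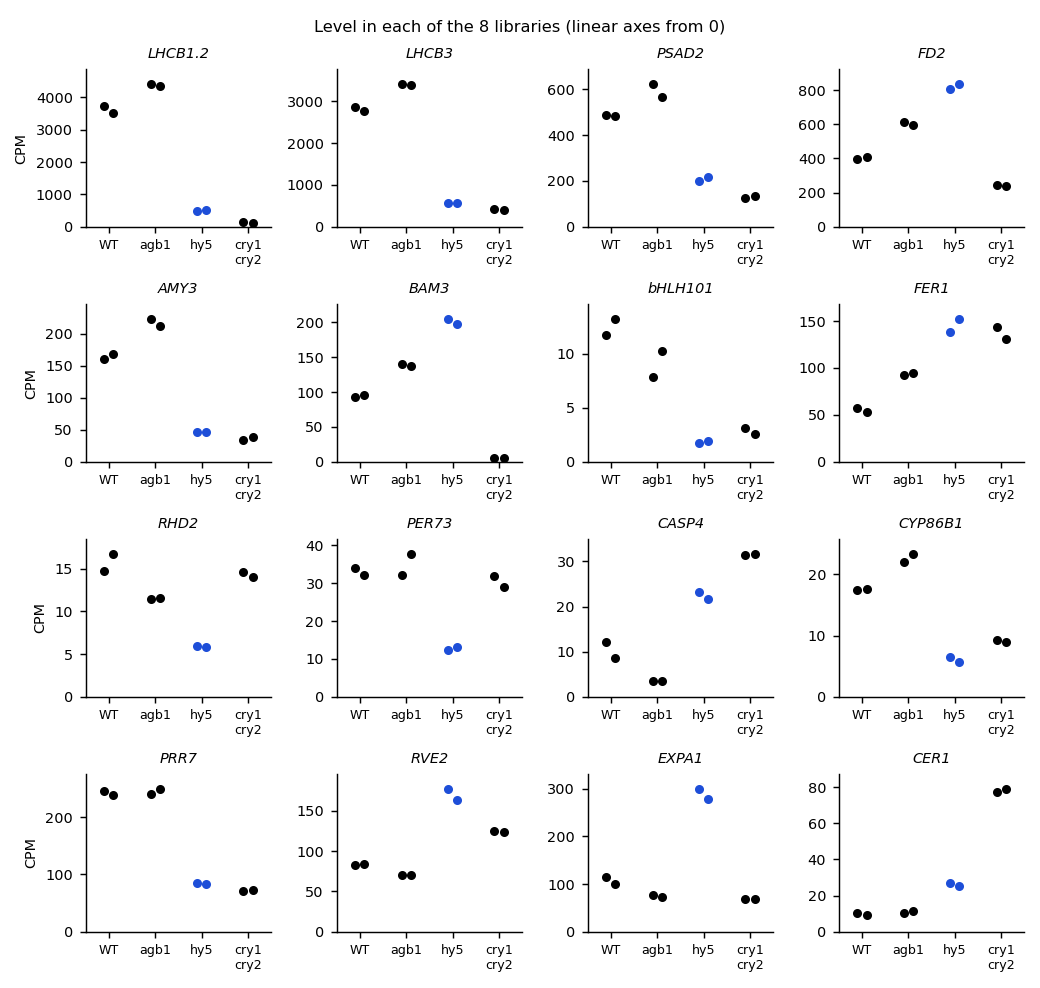
Level in CPM (vertical axes, linear from 0) of 16 genes in each of the 8 libraries, with hy5 in blue. The hy5 libraries lie apart from both WT libraries in every panel, and RHD2 and PER73 are lower in hy5 than in the other 3 genotypes.

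Most iron genes fell, and those of the iron-storing ferritins rose. Of 23 tested genes 14 fell and 3 rose (median -0.71). bHLH101 (AT5G04150, chromosome 5, bases 1138410 to 1139633), one of the group Ib factors that activate iron uptake, had 11.8 and 13.2 CPM in WT and 1.76 and 1.93 CPM in hy5 (-2.75 ± 0.18, adjusted p = 1.99e-13). The other factors of that group were also lower, bHLH38 from 6.21 ± 0.389 to 0.412 ± 0.0810 CPM (-3.91 ± 0.29) and bHLH39 from 5.19 ± 0.250 to 1.89 ± 0.766 CPM (-1.43 ± 0.22). bHLH100 had 46 and 34 reads in WT and 0 and 0 reads in hy5, which is at least 11.6-fold lower if 3 reads per hy5 library are taken as the limit. The iron-signalling peptide genes IMA1 (-2.81 ± 0.36) and IMA2 (-2.28 ± 0.29) fell from low levels of 2.72 ± 0.0559 to 0.383 ± 0.0396 CPM and 4.96 ± 0.437 to 1.05 ± 0.762 CPM. The list median is the same with bHLH100 placed at that bound. These 5 genes and FIT were picked after their values were seen.

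The genes of the ferric reductase FRO3 (-0.95 ± 0.06) and of the nicotianamine synthase NAS4 (-1.20 ± 0.16) fell too. The uptake regulator FIT was not called (-0.32 ± 0.19, adjusted p = 0.187), nor was the proton pump AHA2 (0.12 ± 0.05, adjusted p = 0.0706, with 0.0333 to 0.0484 under 4 of the alternative settings). Ferritins, which store iron in plastids, rose. FER1 had 56.9 and 53.4 CPM in WT and 139 and 153 CPM in hy5 (1.40 ± 0.06), FER4 had 10.4 and 11.6 CPM in WT and 26.2 and 23.2 CPM in hy5 (1.16 ± 0.10) and FER3 stood at 0.43 ± 0.09. IRT1, the main iron transporter of the root and one of the root markers, was low at 2.39 ± 0.482 to 1.02 ± 0.298 CPM (-1.25 ± 0.28).

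In the nitrogen list 10 of 19 genes rose and 4 fell. AMT1;2, an ammonium transporter, had 29.3 and 27.1 CPM in WT and 71.6 and 73.3 CPM in hy5 (1.36 ± 0.07), and ASN1, an asparagine synthetase known to rise in the dark, fell from 2388 ± 40.2 to 1749 ± 43.2 CPM (-0.45 ± 0.05). The sulfur list gave 5 higher, 3 lower and 10 not called of 18, with the sulfate transporter gene SULTR2;1 at 0.505 ± 0.06. The share called was 44.4%, near the 42.9% over all loci. The largest changes of the list were decreases of genes with few reads. SULTR1;1, a root sulfate transporter, fell from 1.86 ± 0.600 to 0.416 ± 0.158 CPM (-2.18 ± 0.43) and BGLU28 from 1.19 ± 0.0459 to 0.345 ± 0.157 CPM (-1.74 ± 0.43). Both were picked after their values were seen. Of 6 phosphate genes 1 fell, PHT1;4 (-0.40 ± 0.09), and 5 were not called, a share called of 16.7%. In the list of copper genes and superoxide dismutases 3 of 8 rose, with CSD1 at 0.46 ± 0.06, and 1 fell. The share called there was 50%, beside 42.9% over all loci.

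Genes of DNA replication fell, while most of those of mitosis were not called. Of 12 tested replication genes 10 fell and 2 were not called (median -0.58). The 6 subunits of the MCM helicase, which unwinds DNA at the fork, all fell, although MCM6 lost its call when the transcript model with most reads was used (adjusted p = 0.0578). MCM2 had 11.9 and 13.2 CPM in WT and 8.15 and 6.23 CPM in hy5 (-0.81 ± 0.13, adjusted p = 7.69e-06), MCM4 stood at -0.76 ± 0.14 and MCM5 at -0.61 ± 0.11. The ribonucleotide reductase gene TSO2 was not called (-0.14 ± 0.07). In the mitosis list 6 of 25 genes fell, 2 rose and 17 were not called. The share called was 32%, beside 42.9% over all loci. With DESeq2 only 4 calls were left, all lower, and the higher CYCB1;4 and CYCD3;1 were not called there (adjusted p = 0.13 and 0.189). CYCD3;2, a cyclin that promotes division in shoots, fell from 43.7 ± 1.78 to 28.2 ± 1.19 CPM (-0.63 ± 0.07), and the mitotic kinase CDKB2;1 did not pass the test (0.15 ± 0.08). MCM5 and CDKB2;1 were picked after their values were seen.

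Among stress and defence genes, most of the jasmonate list and of the cold and abscisic acid list moved, and few salicylate genes did. Of 19 tested jasmonate genes 12 rose and 1 fell (median 0.42). The storage protein genes VSP2, with 1.56 and 1.84 CPM in WT and 8.80 and 8.11 CPM in hy5, and VSP1, with 11.2 and 11.6 CPM in WT and 28.6 and 31.4 CPM in hy5, rose (2.31 ± 0.18 and 1.40 ± 0.09). AOC2, an allene oxide cyclase of jasmonate synthesis, fell (-0.65 ± 0.07). The defensin gene PDF1.2 had no read in the 4 libraries. Of 13 salicylate and immunity genes 1 rose, 2 fell, among them the flagellin receptor FLS2 (-0.67 ± 0.07), and 10 were not called. The share called was 23.1%, below the 42.9% over all loci.

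The list of cold and abscisic acid response gave 7 higher and 9 lower of 21. Cold-regulated genes were among its lower members. COR15B had 16.7 and 15.4 CPM in WT and 4.34 and 3.34 CPM in hy5 (-2.08 ± 0.13), KIN2 stood at -1.47 ± 0.07, and the cold regulators CBF1 and CBF3 went from 5.23 ± 0.125 to 1.36 ± 0.436 CPM (-1.91 ± 0.22) and 3.48 ± 0.431 to 0.979 ± 0.524 CPM (-1.85 ± 0.28). Its higher members included ERD10 at 0.70 ± 0.06, RD29B at 0.87 ± 0.07 and the phosphatase HAB1 at 0.70 ± 0.06. CBF1 and CBF3 were picked after their values were seen.

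Glucosinolates, sulfur-rich defence compounds, fall into classes by precursor. Indole glucosinolate genes gave 6 higher and 1 lower of 9, with CYP79B3 at 0.45 ± 0.06 and its paralog CYP79B2 at -0.30 ± 0.07. The called members fell to 4 with DESeq2, 3 higher and 1 lower, and to 4 without hy5 replicate 2. Aliphatic ones gave 2 higher, 3 lower and 11 not called of 16, so that 31.2% were called, beside 42.9% over all loci. Of 7 heat shock genes 2 rose, HSP70 among them (0.71 ± 0.07), and 5 were not called, a share called of 28.6%.

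The hy5 libraries were also set directly against those of the other mutants. These comparisons share the hy5 libraries with the one against WT, and their counts stand side by side without a test of overlap. Against agb1, 10326 loci were called (49.9%), 5323 higher (25.7%) and 5003 lower (24.2%) in hy5. Against cry1 cry2, 9046 were called (43.7%), 4792 higher (23.2%) and 4254 lower (20.6%). With library sizes alone as scaling these became 6419 higher and 4005 lower against agb1, and 3159 higher and 8044 lower against cry1 cry2, where that choice moved the median of all loci from -0.01 to -0.18. By at least 2-fold 1149 were higher (5.55%) and 1003 lower (4.85%) than in agb1, and 1275 higher (6.16%) and 682 lower (3.3%) than in cry1 cry2.

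Against cry1 cry2, photosynthesis genes were higher in hy5. Of the antenna genes 20 of 21 were higher and 1 lower in hy5, of the photosystem list 31 of 31 were higher, and of carbon fixation 18 of 19 (median 2.12). LHCB1.2 had 142 and 129.8 CPM in cry1 cry2, far below both hy5 libraries (1.89 ± 0.06, adjusted p = 4.46e-22). LHCB3 was closer, with 426 and 403 CPM in cry1 cry2 (0.45 ± 0.05). Of starch and carbon starvation genes those higher in hy5 were 11 of 13, and BAM3, which was above WT in hy5, had 5.48 and 5.27 CPM in cry1 cry2 (5.23 ± 0.08). Against agb1, antenna, starch and carbon starvation, and clock genes were more often lower than higher in hy5. LHCB1.2 had 4426 and 4350.0 CPM in agb1 (-3.12 ± 0.06), SEX1 had 649 and 678 CPM in agb1 (-1.92 ± 0.06) and PRR7 had 240.3 and 250.1 CPM in agb1 (-1.55 ± 0.06). Antenna genes gave 17 lower and 2 higher in hy5 than in agb1, and starch and carbon starvation genes 8 lower and 1 higher of 13, and clock genes 15 lower and 11 higher of 31.

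Root hair and DNA replication genes lay mostly lower in hy5 in these comparisons as well. Against agb1 9 of 11 root hair genes were lower in hy5, and against cry1 cry2 11 of 11 were lower (median -0.97). RHD2 had 11.4 and 11.6 CPM in agb1 and 14.6 and 14.003 CPM in cry1 cry2, and both hy5 libraries lay below all 4 of these (-0.95 ± 0.13 and -1.27 ± 0.12, adjusted p = 3.81e-07 and 5.71e-10). PER73 gave -1.45 ± 0.10 and -1.26 ± 0.10. Replication genes gave 9 lower and 1 higher of 12 against agb1, and 10 lower of 12 against cry1 cry2. MCM2 stood at -0.86 ± 0.13 and -0.77 ± 0.13.

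For growth lists the counts against cry1 cry2 were mixed. SAUR genes gave 10 higher and 2 lower in hy5 than in cry1 cry2 (median 0.30), and 4 higher and 2 lower with library sizes alone. Alpha-expansins gave 6 higher and 8 lower in hy5 than in cry1 cry2, and aquaporins 6 and 6, whereas against agb1 they gave 9 and 5, and 16 and 1. EXPA1 was higher in hy5 than in both other mutants, which had 76.5 and 73.6 CPM in agb1 and 68.3 and 68.5 CPM in cry1 cry2 (1.95 ± 0.06 and 2.08 ± 0.06). Wax and cutin genes gave 5 higher and 10 lower in hy5 than in cry1 cry2, and CER1 had 77.1 and 79.2 CPM in cry1 cry2, above hy5 (-1.59 ± 0.07). With library sizes alone the split of the aquaporins against cry1 cry2 became 5 higher and 12 lower.

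For iron, bHLH101 had 7.84 and 10.2 CPM in agb1 and 3.16 and 2.61 CPM in cry1 cry2, and hy5 lay below both (-2.27 ± 0.19 and -0.64 ± 0.24, adjusted p = 5.13e-11 and 0.0313). FER1 was higher in hy5 than the 92.9 and 94.9 CPM in agb1 (0.63 ± 0.06), and its difference from the 143 and 131 CPM in cry1 cry2 was 0.09 ± 0.06 (adjusted p = 0.261). Over the suberin and Casparian strip list hy5 was higher at 10 and lower at 11 of 21 genes against agb1, and lower at 13 of them against cry1 cry2. CYP86B1 was lower in hy5 than in both, at 22.01 and 23.4 CPM in agb1 and 9.30 and 8.96 CPM in cry1 cry2 (-1.89 ± 0.11 and -0.58 ± 0.13).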

How the data were processed

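RNA-seq was done on whole blue-light-grown seedlings of 4 genotypes with 2 libraries each. The authors deposited read counts per transcript model for each library, and RPKM values that were not used. Per the submitters' processing notes, Bowtie2 2.2.2 and TAIR10 were used. No source used here gives the counting tool, the strand setting, the treatment of reads with several matches or the time of harvest.

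Counts were summed over the models of a locus, so that a read assigned to several models may be counted more than once. This gave 27628 loci, of which 10690 had more than 1 model. Library totals were between 15651218 and 23098347 reads. All 8 libraries entered 1 edgeR 4.0.16 quasi-likelihood fit (R 4.3.3) with a mean per genotype, TMM scaling (factors 0.931 to 1.12) and filterByExpr (minimum count 10, minimum total 15), which kept 20695 loci and left 4 residual degrees of freedom. The hy5 libraries were set against WT, agb1 and cry1 cry2, with Benjamini-Hochberg adjustment over all tested loci for each. Standard errors were obtained from the log2 fold change and the F statistic. The fit was also run on simulated counts, and no result here rests on that run. DESeq2 1.42.0, other scalings, filters and counting, and leaving out each library were tried as alternatives. Within each genotype the 2 libraries differed by more than counting noise (chi-square per degree of freedom 2.34 to 3.44).

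Text names up to 3 called genes per direction of each of 44 lists and the uncalled member of highest CPM, the 12 largest changes each way at 5 CPM or more, and up to 2 per protein family. Not every gene within this rule is named in the text. PGLP1 and GGT1 of photorespiration, for example, are left out. The members and lists were chosen with earlier results of these data known. Promoters are the 250 bases before the gene start in RefSeq's TAIR10.1 annotation and genome.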

Additional observations from a re-analysis of the deposited data

How the results depend on the processing

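In hy5 against WT, DESeq2 called 2778 genes lower, and 6232 of its calls shared gene and sign with edgeR's. Asking for a change of at least 2-fold left 1306 calls (640 higher and 666 lower), against 2152 in hy5 against agb1 (1149 and 1003) and 1957 in hy5 against cry1 cry2 (1275 and 682). Library sizes alone gave 3159 higher and 8044 lower against cry1 cry2. The share of lower genes with CACGTG went from 7.24% to 8.56% at 2-fold, and that of higher genes from 8.15% to 8.83%. Leaving out 1 library at a time left between 6772 and 7657 calls against WT (3715 to 4065 higher, 3057 to 3592 lower). These refits have 1 library in a genotype, which is assumed to vary like the others.

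With the replicate number as a block there were 8751 calls against WT (4627 higher and 4124 lower), 10238 against agb1 and 8945 against cry1 cry2. The correlation of deviations between same-numbered WT and hy5 libraries was -0.06. Over all pairs of genotypes it ran from -0.07 (WT and agb1) to 0.14 (WT and cry1 cry2). With 2 libraries per genotype these values cannot tell whether same-numbered libraries shared a sowing or a batch.

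The alternatives, up to 13 per gene, were read for the 310 genes within the naming rule, whether or not the text names them. Of 4029 values 3947 kept direction and call, 67 lost the call, 15 gained it and 0 changed direction. Of 572 list counts 18 moved by over 1.5 times. They were 2 for photoreceptors, 3 for plastid gene regulators, 9 and 9 for auxin synthesis, conjugation and transport, 3 and 3 for aliphatic and 4 (DESeq2) and 4 (without hy5 replicate 2) for indole glucosinolates, 2 in 4 settings for copper genes, 4 (DESeq2), 5 and 5 (without either hy5 library) for mitosis, and 2 in 3 settings for seed markers. Depth limits the genes with few reads most, with 17.7% called below 1 CPM.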

Other observations

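Protein families, grouped by words in the annotated product name, are given with the share of their genes called, and no test compared them. Over all tested loci 42.9% were called, 22.6% higher and 20.2% lower. Pentatricopeptide repeat proteins, which edit and process organelle transcripts, gave 67 lower and 3 higher of 245 tested genes in hy5 against WT (median log2 fold change -0.27), so that 28.6% were called, fewer than over all loci, and nearly all of those were lower. AT4G18520 stood at -0.83 ± 0.12. The calls for cytosolic and organelle ribosomal proteins also lay mostly on the lower side, 111 lower and 30 higher of 359, with 39.3% called and a median of -0.10. A putative 30S ribosomal protein, AT5G24490, had 1006 and 1000.5 CPM in WT and 314 and 314 CPM in hy5 (-1.67 ± 0.05), the largest change among members of that family with at least 5 CPM, and it overlaps a locus on the opposite strand. Ligases that charge tRNA gave 20 lower and 6 higher of 54, with 48.1% called. Kinesins, the motor proteins of microtubules, gave 14 lower and 3 higher of 41, with 41.5% called and ATK4 going from 19.8 ± 0.214 to 9.43 ± 0.485 CPM (-1.07 ± 0.10). Of TIR-NBS-LRR resistance proteins 28 were lower and 11 higher of 89, with 43.8% called. RPP4, known for resistance to downy mildew, had 122 and 116 CPM in WT and 45.5 and 40.7 CPM in hy5 (-1.47 ± 0.07), and its neighbours are similar copies between which reads could be split.

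Other families had more genes higher than lower or were even. Arabinogalactan proteins gave 28 higher and 7 lower of 45 tested genes (median 0.47, 77.8% called), where AGP30 was an exception with 20.02 and 17.3 CPM in WT and 4.93 and 6.89 CPM in hy5 (-1.65 ± 0.13). Late embryogenesis abundant proteins gave 29 higher and 12 lower of 65 (63.1% called), and LEA18 had 2.59 and 2.30 CPM in WT and 9.80 and 11.1 CPM in hy5 (2.09 ± 0.16). Homeobox factors gave 30 higher and 6 lower of 69 (52.2% called), among them HB52, with 45.5 and 47.96 CPM in WT and 94.5 and 99.1 CPM in hy5 (1.05 ± 0.07). The bZIP family, to which HY5 belongs, gave 7 higher, 1 lower and 37 not called of 45, a share called of 17.8%, and bZIP3 stood at 0.89 ± 0.10. WRKY factors gave 8 higher and 8 lower of 44 (36.4% called) and MYB factors 49 higher and 39 lower of 193 (45.6% called). Class III peroxidases gave 25 higher and 22 lower of 64, with 73.4% called. Among transporters, AT1G72140 of the major facilitator family rose from 19.8 ± 0.250 to 70.6 ± 1.81 CPM (1.84 ± 0.07), and UMAMIT25, of a family that exports amino acids, rose from 3.15 ± 0.477 to 8.13 ± 0.111 CPM (1.36 ± 0.17). DIR1, a lipid transfer protein of systemic immunity, had 49.5 and 42.6 CPM in WT and 174 and 178 CPM in hy5 (1.93 ± 0.07) and overlaps a locus on the opposite strand. The defensin-like gene AT3G05730 went the other way, with 110.4 and 98.7 CPM in WT and 28.5 and 20.97 CPM in hy5 (-2.09 ± 0.09).

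A ranking of 174 annotation terms with at least 15 tested members, a rule chosen after the data were seen, placed plant-type cell wall organization lowest (median -1.07, 12 lower and 2 higher of 20 tested genes). Photosynthesis lay near the same end with 40 lower and 6 higher of 67, as did rRNA processing with 11 lower and 2 higher of 25. Near the other end stood response to jasmonic acid stimulus (median 0.53, 17 higher and 4 lower of 29) and response to wounding (34 higher and 9 lower of 63). Terms share genes, so their counts are not separate.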
